A study of Mus musculus with 9 samples.

Results

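Cultured muscle stem cells (MuSCs) sorted for low or high fluorescence of a tdTomato reporter at the *MyoD* locus were compared across all genes. The comparison holds 6 of the 9 RNA sequencing libraries of the series, 3 of MyoD-tdTomato low cells and 3 of MyoD-tdTomato high cells, taken by their sample labels, and 13502 of the 25655 genes listed were tested. Both groups came from skeletal muscle of MyoD-KI mice, in which CRISPR-Cas9 placed a P2A-tdTomato sequence just before the stop codon of *MyoD* (*Myod1* in the tables) on a C57BL/6J background, so that the endogenous promoter drives the reporter. Both were grown for 5 days in the same serum-rich growth medium and separated by flow cytometry at the end of culture, and neither received another treatment. The labels give no zygosity for these libraries. The study describes the mice of this experiment as heterozygous, used both sexes, and isolated MuSCs from hindlimb muscle of mice aged 10 to 16 weeks. The magnetic isolation carried over a few non-myogenic cells, which the study describes as negative for the reporter. For the later sort, dead cells were gated out with propidium iodide and cells were stained for α7-integrin, a surface protein of MuSCs. Gates were set on isotype or wild-type controls. How many non-myogenic cells remained in these libraries after the sort is not stated. The number of mice per library is not given in the sources used here. The other libraries, from freshly isolated MuSCs of Pax7-YFP mice, entered neither the filter nor the test.

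MuSCs, or satellite cells, lie between the muscle fibre and its basement membrane and rest until the muscle is injured. Once activated they divide as myoblasts under the basic helix-loop-helix factors MYF5 and MYOD, and later express myogenin, leave the cell cycle, fuse and build sarcomeres. Some cells in culture lower MYOD, keep PAX7 and do not differentiate, and Notch signalling is known to hold MuSCs in this state.

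The 6 libraries were of similar depth, with 24471782 to 25767904 counts in MyoD-tdTomato low libraries and 24643176 to 26782872 in MyoD-tdTomato high libraries, and mitochondrial transcripts took 3.92% to 4.61% and 4.44% to 4.95% of them. Libraries are written Low_1 to Low_3 and High_1 to High_3 by the replicate numbers of their labels. Levels below are CPM, a gene's counts per 1000000 counts of its library after scaling with TMM factors, and fold changes are MyoD-tdTomato low over MyoD-tdTomato high. A gene was called at an adjusted p (edgeR quasi-likelihood test, Benjamini-Hochberg over all genes tested) under 0.05 with a fold change over 1.5. The study calls its libraries technical replicates, so the p-values rest on a spread that may be technical.

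In MyoD-tdTomato low cells 793 genes were higher and 1162 lower, compared with MyoD-tdTomato high cells, 5.87% and 8.61% of those tested. The called falls were larger than the called rises, with a median log2 fold change of -1.26 against 0.93. A change of over 4-fold was seen for 319 genes that fell and for 103 that rose. The groups did not overlap for 1161 of the genes that fell and 790 of those that rose, while 22.6% and 22.7% of all genes tested had no overlap in these directions. Genes that fell held 67440, 52060 and 63197 CPM in total in the MyoD-tdTomato low libraries, against 186908, 121377 and 155489 CPM in the MyoD-tdTomato high libraries. Genes that rose held 43439, 42334 and 40867 CPM in total, against 21264, 27713 and 22899 CPM. The median log2 fold change over all genes tested was 0.03, with quartiles at -0.23 and 0.29. Single libraries moved these counts: without High_3, 372 genes rose and 794 fell, without High_1, 524 rose and 783 fell, and 311 and 675 of the called genes were called without each library in turn. With limma on log2(TPM + 1), 931 rose and 888 fell, so that 51.2% of calls were rises, against 40.6% in the count test.

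**Figure D1:**
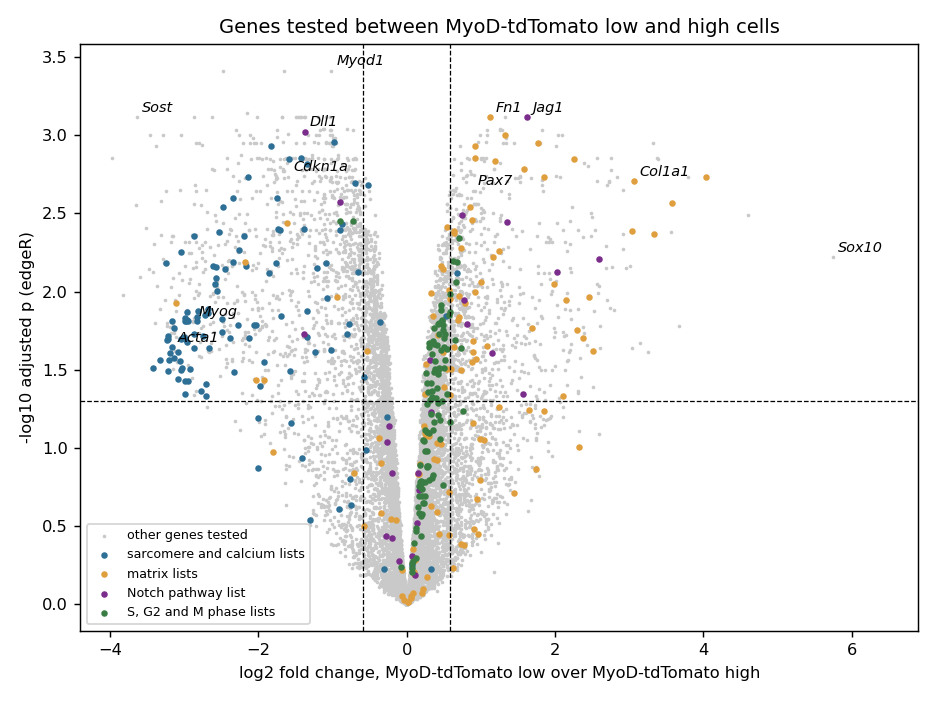
Log2 fold change (MyoD-tdTomato low over MyoD-tdTomato high, x axis) against −log10 of the adjusted p (y axis) for each gene tested, with sarcomere and calcium, matrix, Notch pathway and S, G2 and M phase lists in colour and dashed lines at the limits for a call. Sarcomere genes lie to the left, with *Acta1* at -3.16, matrix genes mostly to the right, with *Col1a1* at 3.06, and cell cycle genes close to 0.

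*Myod1* itself was measured first, as a check of the labels, since the sort used its locus. The library values were 775, 794 and 769 CPM in MyoD-tdTomato low cells, against 1604, 1559.7 and 1564 CPM in MyoD-tdTomato high cells. The groups stood apart with hardly any spread within them, and *Myod1* (chromosome 7, 46025898 to 46028523, GRCm39) was 2.02-fold lower in MyoD-tdTomato low cells. Every library matched its label.

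The cells were of the myogenic lineage in both groups. The 10 markers of MuSCs and myoblasts summed to 4589 to 5902 CPM in MyoD-tdTomato low libraries and 7861 to 9968 CPM in MyoD-tdTomato high libraries. Markers of other cell types were far lower for the blood and vessel lineages. The 20 endothelial markers summed to 79.7 to 102 CPM in MyoD-tdTomato low and 31.5 to 34.7 CPM in MyoD-tdTomato high libraries, with 11 of the 14 tested called higher, and *Tie1*, *Cldn5*, *Sox17*, *Sox18*, *Robo4* and *Ecscr* too low to test, with a count of 0 in at least 1 library. *Eng* (endoglin, a TGF-beta co-receptor of many mesenchymal cells) made up much of that sum, at 40.6, 45.0 and 42.7 CPM against 19.7, 22.7 and 22.4 CPM. *Cdh5* (VE-cadherin of endothelial junctions) was at 3.93, 7.98 and 6.07 CPM against 0.717, 0.453 and 0.632 CPM. The 16 macrophage and myeloid markers summed to 45.3 to 81.6 CPM and 24.1 to 49.3 CPM, with 6 of 13 higher (10 higher and 1 lower with the library number as a block), and *C1qa* (a complement subunit made by macrophages) at 2.36, 4.42 and 5.25 CPM against 0.380, 0.340 and 0.422 CPM.

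Markers of connective tissue were present at higher levels and are partly shared with myoblasts. The 14 fibroblast markers summed to 1162 to 1867 CPM in MyoD-tdTomato low and 892 to 1070 CPM in MyoD-tdTomato high libraries, with 5 of 8 tested higher (2 without High_1, 3 without Low_1 or High_3), whereas *Dcn*, *Lum*, *Dpt*, *Pi16*, *Clec3b* and *Dpp4*, markers of fibro-adipogenic progenitors, were too low to test. Pericyte and smooth muscle markers summed to 519 to 1089 CPM against 1418 to 2660 CPM, with 3 higher and 2 lower of 8 tested. Without Low_3 1 of them was higher and 0 lower, and without High_1 or High_3 1 was higher and 1 lower. Tenocyte markers summed to 89.2 to 92.5 CPM against 141 to 149 CPM, with 1 higher and 1 lower of 5, and the rise was lost without Low_3, High_1 or High_3. Schwann and glial markers summed to 71.7 to 131 CPM against 133 to 221 CPM, with 3 higher (1 without High_3) and 1 lower of 7. *Sox10*, a defining factor of Schwann cells, was at 1.42, 5.35 and 9.21 CPM in MyoD-tdTomato low cells and at 0.0422, 0.0754 and 0.169 CPM in MyoD-tdTomato high cells, with spread in both groups but no overlap, whereas *S100b*, another marker of these cells, was too low to test. Adipocyte markers summed to 6.92 to 7.66 CPM against 4.81 to 8.05 CPM, with *Adipoq* and *Lep* at 0 in all 6 libraries. Lymphocyte and erythroid markers stayed under 0.315 CPM in every library, with *Ms4a1*, *Nkg7*, *Hbb-bs* and *Hbb-bt* at 0 in all 6. In bulk libraries a smaller number of cells of one type and less RNA per cell cannot be told apart, and the part of these other cell types in the results below, after a sort on tdTomato and α7-integrin staining, was not tested.

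**Figure D2:**
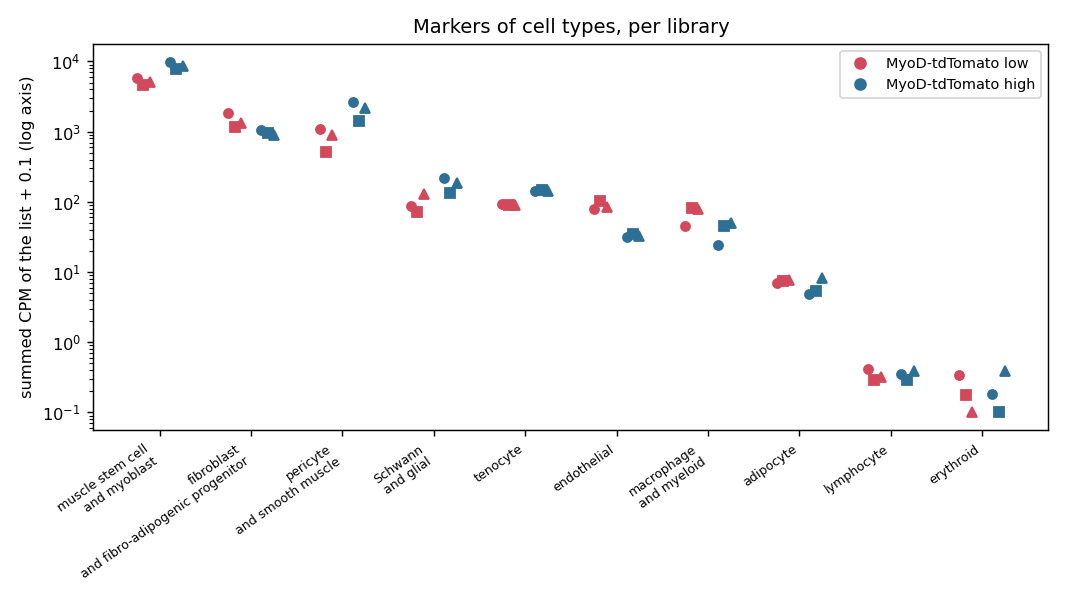
Summed CPM (log axis) of each marker list plus 0.1 by library, MyoD-tdTomato low left of MyoD-tdTomato high, with 1 point per library. Endothelial markers lie at 79.7 to 102 CPM against 31.5 to 34.7 CPM, and lymphocyte and erythroid markers lie below 0.315 CPM in both groups.

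The transcription factors of muscle differentiation fell in MyoD-tdTomato low cells. Of 27 myogenic regulatory factors and partners tested, 16 were called lower and 0 higher (1 higher without Low_1, 2 without High_2), with a median log2 fold change of -0.78. The counts of calls lower were 10 without Low_3 or High_1 and 11 without High_3. *Myog* (myogenin, the factor that drives terminal differentiation; chromosome 1, 134217727 to 134220286) was at 472, 147 and 383 CPM in MyoD-tdTomato low cells, against 3188, 1661 and 2519.8 CPM in MyoD-tdTomato high cells. All 3 MyoD-tdTomato low libraries lay below the lowest MyoD-tdTomato high library, and the log2 fold change was -2.88 ± 0.51 (SE, n = 3 per group, edgeR adjusted p = 0.0154). The call was lost without Low_3 or High_1, where the highest adjusted p was 0.0702.

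The MEF2 proteins act with MYOD and myogenin at muscle genes, and 3 of them fell. *Mef2a* was at 203, 187 and 218 CPM in MyoD-tdTomato low cells and at 775, 501 and 656 CPM in MyoD-tdTomato high cells, a log2 fold change of -1.67 ± 0.15 (edgeR adjusted p = 0.0011). *Mef2d* was 1.92-fold lower, and *Mef2c*, added after its values were seen, was at 29.7, 8.72 and 19.5 CPM against 239, 98.4 and 174 CPM, 8.84-fold lower, and was not called without Low_3 or High_1 (adjusted p up to 0.0624). *Hes6*, a helix-loop-helix protein that promotes differentiation, was at 555, 438 and 524 CPM against 1452, 1087 and 1280.0 CPM (log2 fold change -1.33 ± 0.13, edgeR adjusted p = 0.000997). *Smyd1*, a muscle methyltransferase needed for sarcomere assembly, was 3.26-fold lower. The groups did not overlap for these 5 genes, and *Mef2a*, *Mef2d*, *Hes6* and *Smyd1* were called without each library in turn.

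The factor of the committed but undifferentiated myoblast differed less between the groups. *Myf5*, which marks myoblasts before differentiation, was at 148, 168 and 160.3 CPM in MyoD-tdTomato low cells and at 99.0, 123 and 102 CPM in MyoD-tdTomato high cells. The groups did not overlap and the adjusted p was 0.00671, but the 1.47-fold difference lay below the fold change set for a call, which it passed without Low_1 or High_2.

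**Figure D3:**
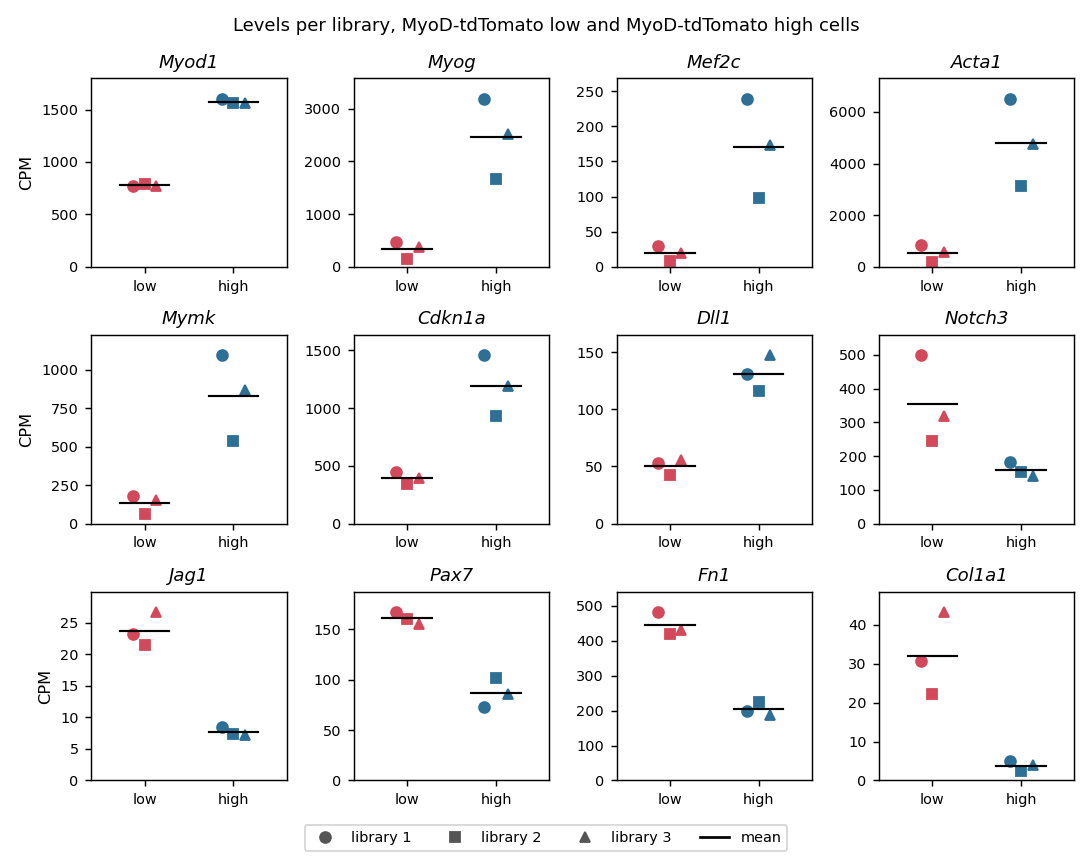
CPM (linear axes from 0) of 12 genes in each library, MyoD-tdTomato low on the left of MyoD-tdTomato high, with 1 point per library and a line at the mean. *Myod1* averages 779 ± 13.5 CPM against 1576 ± 24.6 CPM (SD, n = 3 each), and *Jag1* runs the other way at 23.8 ± 2.65 CPM against 7.72 ± 0.696 CPM.

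MYOD and myogenin bind the E-box, the letters CANNTG on either strand, and CAGCTG is a form of it that reads the same on both strands. Promoter windows are shown for *Myog*, for *Acta1* and *Chrna1* as a sarcomere and a receptor gene that fell, and for *Jag1* as a gene that rose. They run from 250 bases before to 50 bases after the start site in RefSeq (GRCm38.p6, not the build of the counts), 5′ to 3′ on the strand of the gene, with CANNTG in capitals.
Myog, chr1:134289754-134290053, plus strand: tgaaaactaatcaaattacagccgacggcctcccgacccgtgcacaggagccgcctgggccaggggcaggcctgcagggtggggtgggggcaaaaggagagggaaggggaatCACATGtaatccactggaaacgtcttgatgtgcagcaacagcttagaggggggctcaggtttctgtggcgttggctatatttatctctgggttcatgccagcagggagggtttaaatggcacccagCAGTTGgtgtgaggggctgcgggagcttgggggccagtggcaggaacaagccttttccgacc
Acta1, chr8:123894726-123895025, minus strand: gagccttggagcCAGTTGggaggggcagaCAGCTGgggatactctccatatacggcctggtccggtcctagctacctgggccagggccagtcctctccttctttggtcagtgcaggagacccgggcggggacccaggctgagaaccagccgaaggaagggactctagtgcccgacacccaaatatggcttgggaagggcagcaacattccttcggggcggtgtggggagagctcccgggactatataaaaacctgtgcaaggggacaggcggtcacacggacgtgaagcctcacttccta
Chrna1, chr2:73580289-73580588, minus strand: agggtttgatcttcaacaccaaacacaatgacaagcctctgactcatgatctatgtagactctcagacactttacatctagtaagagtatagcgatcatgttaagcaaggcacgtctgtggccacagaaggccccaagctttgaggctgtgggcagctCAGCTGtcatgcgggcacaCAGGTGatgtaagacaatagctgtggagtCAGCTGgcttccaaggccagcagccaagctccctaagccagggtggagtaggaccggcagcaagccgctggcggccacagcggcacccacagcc
Jag1, chr2:137116471-137116770, minus strand: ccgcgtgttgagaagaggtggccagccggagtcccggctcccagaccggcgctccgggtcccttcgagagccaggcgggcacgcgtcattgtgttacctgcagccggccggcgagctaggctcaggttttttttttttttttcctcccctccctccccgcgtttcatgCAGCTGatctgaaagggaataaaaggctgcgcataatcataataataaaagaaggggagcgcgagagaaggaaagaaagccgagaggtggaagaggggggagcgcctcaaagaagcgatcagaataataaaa

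*Myog* held CANNTG at 138 and 12 bases before the start site. *Acta1* held it at 238 and 221 bases, with CAGCTG at 221. *Chrna1* held it at 92, 73 and 44 bases, with CAGCTG at 92 and 44. *Jag1* held a single CAGCTG at 82 bases. At least 1 CANNTG stood in 72.7% of the 1262 windows of genes that fell, 64.2% of the 755 windows of genes that rose, 64.1% of the 13675 windows of all genes tested and 72.3% of all 32851 windows. CAGCTG stood in 24.7%, 18.7%, 15.8% and 16.3% of the same windows. A match of letters is a description of the window and not a bound site.

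The contractile apparatus and its fuel supply fell together in MyoD-tdTomato low cells. Of 137 tested genes of the thick filament, thin filament, Z-disc and costamere, excitation-contraction coupling and muscle energy metabolism, 116 were called lower and 1 higher, with a median log2 fold change of -2.35. All 149 genes of these lists, tested or not, summed to 16841, 9891 and 13951 CPM in MyoD-tdTomato low libraries. In MyoD-tdTomato high libraries they summed to 66675, 36784 and 51005 CPM. Among libraries numbered 1, 2 and 3, 132, 131 and 133 of the 137 genes were lower in the MyoD-tdTomato low library. This is no added evidence, since a gene whose groups do not overlap has the same direction within every number. In sum, library 2 was the lowest and library 1 the highest within both groups. Of all 13502 genes tested, 3694 had this order in MyoD-tdTomato low cells and 3562 in MyoD-tdTomato high cells. Of the 137 genes here, 105 and 127 had it. The count of calls lower was 48 without Low_3, 55 without High_1 and 61 without High_3, against 119 without Low_1, 115 without Low_2, 112 without High_2 and 123 with the library number as a block. The size of the difference changed less, with a median log2 fold change between -2.69 and -2.10 and 130 to 134 of the 137 genes negative over the 6 omissions.

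**Figure D4:**
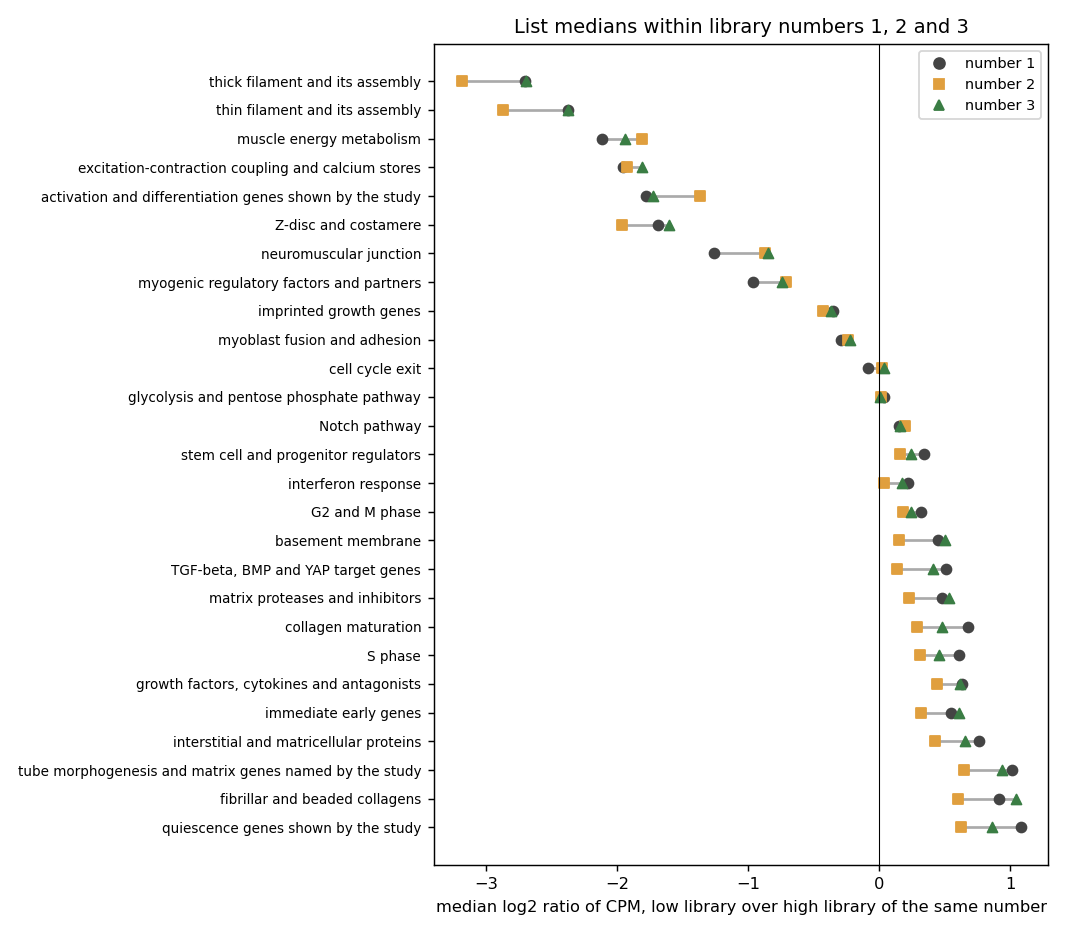
Median log2 ratio of CPM (x axis) of each functional list, taken as the MyoD-tdTomato low library over the MyoD-tdTomato high library of the same number, with 1 symbol per library number and a line over their range. Thick filament genes lie at -2.71, -3.19 and -2.70 and fibrillar and beaded collagens at 0.91, 0.60 and 1.04. The sign within a number is fixed in advance for a gene whose groups do not overlap.

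Thick filament genes had the lowest median of the lists, with 22 of 24 lower and a median log2 fold change of -2.95. Without Low_3, High_1 and High_3 in turn, 7, 9 and 10 of them were called lower. *Myh3*, the embryonic myosin heavy chain made by new myotubes, was at 647, 107 and 409 CPM in MyoD-tdTomato low cells and at 5423, 2417 and 3818 CPM in MyoD-tdTomato high cells. No library overlapped, and *Myh3* had a log2 fold change of -3.33 ± 0.74 (edgeR adjusted p = 0.0273). *Ttn*, the giant spring protein titin, was at 489, 255 and 472 CPM against 3186, 1780.1 and 2256 CPM, 5.94-fold lower (edgeR adjusted p = 0.00692). The exception was *Mylk2*, the skeletal muscle myosin light chain kinase, at 42.0, 33.5 and 33.7 CPM in MyoD-tdTomato low cells against 21.0, 25.9 and 21.1 CPM, 1.61-fold higher, which was not called without Low_1. *Mybpc1*, a myosin-binding protein of slow fibres, had a log2 fold change of -2.01 and missed the call in the edgeR fit without the block (adjusted p = 0.0642). It was called lower with the library number as a block (adjusted p = 9.44e-08), without Low_1 or Low_2, with all 9 libraries in the fit, and with DESeq2 and both limma fits on log2 TPM.

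In the thin filament 19 of 23 genes fell, and 4, 4 and 7 without Low_3, High_1 and High_3 in turn. *Acta1*, skeletal muscle actin, was at 865, 178 and 563 CPM in MyoD-tdTomato low cells and at 6518, 3128 and 4744 CPM in MyoD-tdTomato high cells, 8.96-fold lower (log2 fold change -3.16 ± 0.65, edgeR adjusted p = 0.0227). *Tnnt2*, the troponin T form of the heart and of developing muscle, was at 212, 105 and 166 CPM against 1149, 621 and 869.5 CPM, 5.46-fold lower. *Neb*, nebulin, which sets filament length, was 3.37-fold lower. Each of these genes had its lowest value in library 2 of either group. *Acta1* and *Myh3* were not called without Low_3, High_1 or High_3, with adjusted p up to 0.0948 and 0.11, whereas *Ttn*, *Tnnt2* and *Neb* were called without each library in turn.

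The Z-disc and costamere list had 30 of 36 genes lower, excitation-contraction coupling and calcium stores 26 of 32, and muscle energy metabolism 19 of 22, with none higher in these 3 lists. Without Low_3, High_1 and High_3 in turn the counts were 13, 16 and 17 for the Z-disc, 14, 14 and 17 for calcium handling and 10, 12 and 10 for energy metabolism. *Flnc*, the muscle filamin that crosslinks actin at the Z-disc, was 2.10-fold lower and *Cryab*, a small heat shock protein that protects it, 2.13-fold lower. *Ryr1*, the calcium release channel of the sarcoplasmic reticulum, was at 207, 106 and 174 CPM in MyoD-tdTomato low cells and at 732, 478 and 553 CPM in MyoD-tdTomato high cells, 3.62-fold lower (edgeR adjusted p = 0.00758). *Bin1*, which shapes the T-tubule membrane, was at 473, 325 and 406 CPM against 1264, 827 and 1061 CPM, 2.62-fold lower. *Pygm*, muscle glycogen phosphorylase, was 4.95-fold lower, *Ckb*, brain-type creatine kinase, 3.35-fold lower, and *Eno3*, the muscle enolase, 1.62-fold lower. All 7 of these genes were called without each library in turn.

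**Figure D5:**
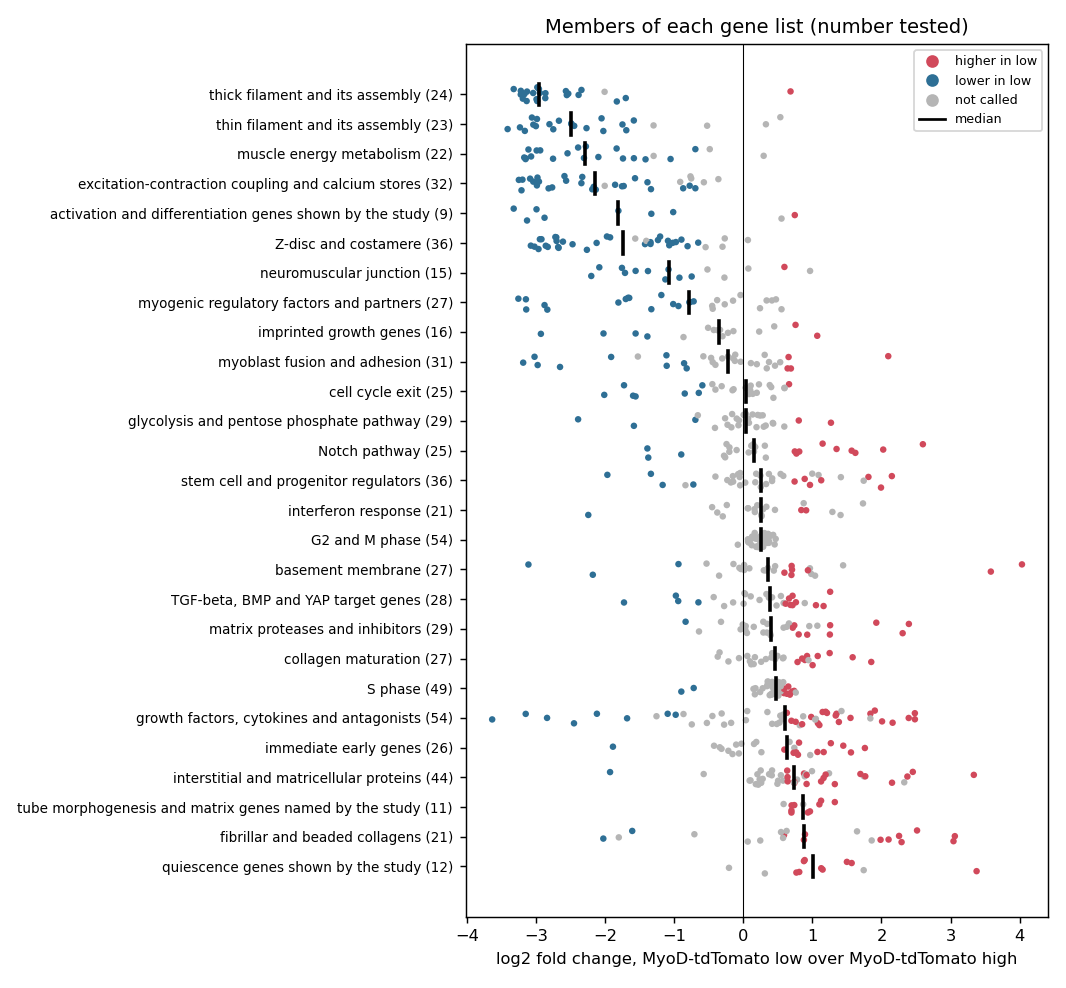
Log2 fold change (MyoD-tdTomato low over MyoD-tdTomato high) of every tested member of each functional list, 1 point per gene, with called genes coloured and a bar at the list median. The thick filament list has its median at -2.95 and the fibrillar and beaded collagens at 0.88, beside 0.03 for all genes tested.

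Some genes of cell fusion and most of the nerve contact list also fell. Of 31 fusion and adhesion genes 9 fell and 4 rose, with a median log2 fold change of -0.22, and 5, 3 and 4 fell without Low_3, High_1 and High_3 in turn. *Mymk* (myomaker, a membrane protein required for myoblast fusion) was at 182, 63.8 and 151 CPM in MyoD-tdTomato low cells and at 1093, 538 and 866 CPM in MyoD-tdTomato high cells, 6.30-fold lower (log2 fold change -2.65 ± 0.48, edgeR adjusted p = 0.0162). *Mymx* (myomixer, its partner) was 7.88-fold lower, and both calls were lost without Low_3, High_1 or High_3 (adjusted p up to 0.0722 and 0.0839). Both genes were called with the library number as a block (edgeR adjusted p = 9.66e-08 and 0.00205). *Ncam1*, a neural cell adhesion molecule of myoblasts, was at 506, 395 and 482 CPM against 1188, 822 and 975 CPM, 2.16-fold lower. *Itgb3*, the integrin beta chain of the vitronectin receptor, was higher, at 9.36, 7.86 and 11.8 CPM in MyoD-tdTomato low cells and 2.19, 2.45 and 2.11 CPM in MyoD-tdTomato high cells, 4.28-fold higher (edgeR adjusted p = 0.000997). *Kirrel*, an immunoglobulin adhesion protein, was also higher, with a log2 fold change of 0.69.

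At the neuromuscular junction 10 of 15 genes fell and 1 rose. *Chrna1*, the alpha subunit of the acetylcholine receptor, was at 1019, 934 and 1023 CPM in MyoD-tdTomato low cells and at 2447, 1823 and 2037 CPM in MyoD-tdTomato high cells, with log2 fold change -1.08 ± 0.11 (edgeR adjusted p = 0.0011). *Musk*, the receptor kinase that clusters it, and named after its values were seen, was 2.19-fold lower and *Ache*, likewise added, the enzyme that clears acetylcholine, 3.38-fold lower. The gene that rose was *Agrn* (agrin, which signals to MuSK and also sits in basement membrane), at 51.0, 53.1 and 76.5 CPM against 35.9, 44.6 and 39.1 CPM. Its 1.51-fold difference was not called with the library number as a block (adjusted p = 0.0037, fold change below the limit), nor without Low_3, High_1 or High_3.

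Several inhibitors of the cell cycle fell and some replication genes rose by a small step in MyoD-tdTomato low cells. *Cdkn1a* (p21, which arrests differentiating myoblasts) was at 446, 340.0 and 396 CPM in MyoD-tdTomato low cells and at 1455, 929 and 1194 CPM in MyoD-tdTomato high cells, 3.02-fold lower (log2 fold change -1.60 ± 0.17, edgeR adjusted p = 0.00184). *Rb1*, the retinoblastoma protein that blocks E2F factors, was at 42.2, 30.3 and 48.4 CPM against 169.5, 93.1 and 138 CPM, 3.31-fold lower. *Gadd45a*, a stress and arrest gene, was 4.04-fold lower, though not without Low_3 (adjusted p = 0.0503). In the cell cycle exit list 7 of 25 genes fell and 1 rose, *Cdkn2b* (p15), whose 1.58-fold difference was not called without Low_1, Low_2, High_1 or High_3. The list median was 0.03, 4 genes fell without High_1, and 3 rose with the library number as a block.

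S phase genes were shifted by a small step. Of 49 tested, 47 had a positive log2 fold change and 35 passed an adjusted p of 0.05 on the higher side at any fold change, beside 53.3% and 12.1% of all genes tested. Only 8 passed the 1.5-fold limit, with a median of 0.47. *Cdt1*, which loads the replicative helicase, was at 134, 134 and 128 CPM in MyoD-tdTomato low cells and at 67.8, 94.5 and 80.2 CPM in MyoD-tdTomato high cells, 1.63-fold higher (edgeR adjusted p = 0.00453), and was called without each library in turn. *Mcm5*, a subunit of that helicase, was at 213, 231 and 223 CPM against 122, 172 and 149 CPM, and its rise was not called without Low_2 or High_1. The count of S phase genes higher was 1 without High_1, 5 without Low_2 or High_3 and 20 without High_2, the library with the highest sum of these genes in its group, and it was 0 with all 9 libraries in the fit and 19 with limma on log2(TPM + 1). *E2f2*, an activating E2F factor, and *E2f8*, a repressing one, were the 2 members that fell, *E2f2* at 26.4, 19.4 and 22.3 CPM against 47.2, 37.2 and 42.5 CPM.

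None of the 54 genes of G2 and M phase was called in the count test, although 53 had a positive log2 fold change, 15 of them at an adjusted p under 0.05 and 26 at an unadjusted p under 0.05, with a median of 0.26. Of all genes tested, 12.1% and 19.7% were higher at these thresholds. DESeq2 also called 0, and 1 was called without High_2. *Mki67*, the Ki-67 antigen of dividing cells, was at 375, 422 and 414 CPM in MyoD-tdTomato low cells and at 309, 345 and 330.2 CPM in MyoD-tdTomato high cells, 1.23-fold apart. *Top2a*, topoisomerase of mitotic chromosomes, was at 323, 391 and 379.7 CPM against 319, 366 and 354 CPM, with overlapping groups. *Ccnd1*, cyclin D1 of G1 phase, was at 474, 676 and 550.5 CPM against 277, 485 and 363 CPM, with an adjusted p of 0.0977 that became 1.33e-05 with the library number as a block, where it was called at a log2 fold change of 0.62, as it was without High_2.

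Of 36 regulators of the stem cell and progenitor state 7 were higher and 4 lower, with a median log2 fold change of 0.25. These are 19.4% and 11.1%, beside 5.87% and 8.61% of all genes tested. The share lower was thus close to that of all genes, and the falls are not read as a trait of the list. The count higher was 1 without High_3, and 4 without Low_2, Low_3 or High_1. *Pax7*, the defining factor of MuSCs, was at 167, 161 and 155 CPM in MyoD-tdTomato low cells and at 72.5, 102 and 86.1 CPM in MyoD-tdTomato high cells, 1.85-fold higher (log2 fold change 0.89 ± 0.12, edgeR adjusted p = 0.00227), and was called without each library in turn. *Msc* (musculin, a helix-loop-helix repressor) and *Meox1* (a somite homeobox factor) rose 4.44-fold and 3.51-fold, with at most 1.42 and 0.962 CPM in any library, and neither was called without Low_3 or High_3 (*Msc* also not without High_1). *Cd34*, a surface sialomucin of MuSCs and of endothelial cells, was at 2.12, 2.71 and 2.33 CPM against 1.05, 1.28 and 0.928 CPM, a rise not called without Low_2, Low_3, High_1 or High_3. *Pax3*, the relative of *Pax7* that acts in embryonic muscle, added after its values were seen, was at 2.71, 2.21 and 2.85 CPM against 2.28, 1.85 and 2.40 CPM and was not called.

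Those that fell were *Tead4* (a TEAD factor that MYOD activates), *Zeb1* (a zinc finger repressor), *Sox8* and *Megf10* (an epidermal growth factor repeat receptor of MuSCs). *Tead4* was at 28.6, 24.6 and 30.4 CPM in MyoD-tdTomato low cells and at 134, 81.4 and 112 CPM in MyoD-tdTomato high cells, 3.92-fold lower (edgeR adjusted p = 0.00112). *Megf10* was at 281, 310.2 and 327 CPM against 532, 472 and 512 CPM, 1.65-fold lower. The groups were apart for both genes, and both were called without each library in turn, whereas *Sox8* was not called without Low_3, High_1 or High_3.

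The Notch pathway differed by role. Notch receptors on one cell are cut when they bind DLL or JAG ligands on a neighbour, and the freed part acts with RBPJ to switch on *Hes* and *Hey* genes. Across the pathway 9 of 25 genes rose and 3 fell, or 36% and 12%, beside 5.87% and 8.61% of all genes tested. The median log2 fold change was 0.15, and the count higher was 5 without High_3. Among receptors, *Notch3* was at 498, 244 and 320.2 CPM in MyoD-tdTomato low cells and at 183, 154 and 142 CPM in MyoD-tdTomato high cells, 2.22-fold higher, and *Notch1* was at 110.1, 72.4 and 85.7 CPM against 59.1, 51.7 and 46.6 CPM, 1.70-fold higher. *Notch3* was not called without Low_3 or any one of High_1 to High_3 (adjusted p up to 0.0888), and *Notch1* was not called without High_3 (0.0544). Both were called with the library number as a block (edgeR adjusted p = 0.00362 and 2.72e-05). *Notch2* was 1.24-fold apart (edgeR adjusted p = 0.0272), below the fold limit.

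Ligands moved in opposite directions. *Dll1*, a ligand made by differentiating myoblasts, was at 52.9, 42.7 and 55.8 CPM in MyoD-tdTomato low cells and at 131, 116 and 147 CPM in MyoD-tdTomato high cells, 2.60-fold lower (log2 fold change -1.38 ± 0.13, edgeR adjusted p = 0.00095). *Jag1*, whose promoter is shown above and which was added after its values were seen, was at 23.2, 21.5 and 26.7 CPM against 8.52, 7.39 and 7.25 CPM, 3.08-fold higher (log2 fold change 1.62 ± 0.13, edgeR adjusted p = 0.000764). Both groups were tight and apart for these 2 ligands, and both were called without each library in turn. *Jag2* was at 161, 186 and 192 CPM against 194, 239.6 and 213 CPM and was not called (adjusted p = 0.0912).

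Downstream, *Rbpj* fell while target genes rose. *Rbpj*, the DNA-binding partner of Notch, was at 81.7, 104 and 107 CPM in MyoD-tdTomato low cells and at 193, 158 and 195 CPM in MyoD-tdTomato high cells, 1.86-fold lower. *Hes1* was at 68.6, 65.0 and 64.9 CPM against 35.5, 46.3 and 36.6 CPM, 1.68-fold higher (edgeR adjusted p = 0.00325), and was called without each library in turn. *Heyl* was at 166, 57.2 and 102 CPM against 44.3, 28.7 and 36.8 CPM, 2.97-fold higher (edgeR adjusted p = 0.0455), with the highest value in library 1 of either group, and was not called without Low_3 or any one of High_1 to High_3. *Hey1* was 1.75-fold higher, not called without Low_1 or High_3, and *Dtx4*, a Deltex ubiquitin ligase of the pathway, 2.55-fold higher. *Notch4* and *Nrarp*, both added after their values were seen, rose 6.06-fold and 4.07-fold. *Notch4* is known mainly from endothelium, whose marker sum was also higher in MyoD-tdTomato low libraries.

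Of the 12 quiescence genes that the study displays for these samples, whose choice may have rested on them and which are not taken as independent evidence, 9 were called higher, with a median log2 fold change of 1.01. The count was 3 without High_3, 5 without Low_3 or High_1 and 6 without High_2. Besides the receptors and targets above, *Arrb1* (beta-arrestin 1, a partner of G protein-coupled receptors) was at 9.76, 10.8 and 11.8 CPM against 2.91, 4.45 and 4.05 CPM. *Adgrf5*, an adhesion receptor that is also abundant in endothelium, was at 2.75, 3.76 and 2.48 CPM against 0.169, 0.302 and 0.379 CPM. *Calcr*, the calcitonin receptor, stayed at or under 0.669 CPM in every library and was not called, and *Spry1*, an inhibitor of growth factor signalling, had overlapping groups (log2 fold change -0.21, edgeR adjusted p = 0.527). Of the 9 activation and differentiation genes the study displays from the same samples, 7 were lower and *Hes1* was higher, with a median log2 fold change of -1.81, likewise not taken as independent evidence, and 3 were lower without Low_3 or High_1 and 4 without High_3.

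Extracellular matrix genes rose in MyoD-tdTomato low cells. Of 148 tested over 5 lists, 53 were called higher and 7 lower, with a median log2 fold change of 0.58. All 159 genes of these lists, tested or not, summed to 24750, 20584 and 21960 CPM in MyoD-tdTomato low libraries. In MyoD-tdTomato high libraries they summed to 17084, 17168 and 16026 CPM, with no overlap. The count higher lay between 36, without High_3, and 60, without Low_2. Fibroblast and endothelial marker sums were also higher, and myeloid sums overlapped between the groups. Pericyte and smooth muscle, tenocyte, and Schwann and glial sums were lower in MyoD-tdTomato low libraries. *Col1a1*, *Col1a2* and *Col3a1* stand both here and among the fibroblast markers.

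Among fibrillar and beaded collagens 10 of 21 rose and 2 fell, with a median of 0.88. *Col1a1*, of type I collagen, was at 30.6, 22.3 and 43.3 CPM in MyoD-tdTomato low cells and at 5.06, 2.49 and 4.01 CPM in MyoD-tdTomato high cells, 8.35-fold higher (log2 fold change 3.06 ± 0.33, edgeR adjusted p = 0.00197). It had the largest rise among genes of at least 10 CPM and was called without each library in turn. *Col1a2*, its partner chain, was at 233, 75.8 and 128 CPM against 53.9, 20.4 and 27.4 CPM. With an edgeR adjusted p of 0.0468, its call survived only the omission of Low_2. It was called with the library number as a block (edgeR adjusted p = 2.98e-09). *Col5a1* was 1.84-fold higher and *Col5a3* 5.72-fold higher, both not called without Low_3 or any one of High_1 to High_3. *Col3a1*, of loose connective tissue, was at 717, 518 and 575 CPM against 388, 439 and 376 CPM, a log2 fold change of 0.59 that was below the limit with the library number as a block (0.58), and was not called without Low_1, High_1 or High_3. The count of collagens higher was 5 without High_3 and 6 without Low_3, High_1 or High_2. The pair that fell was *Col19a1* and *Col25a1*, collagens of differentiating muscle, at 3.05-fold and 4.08-fold lower, the second not called without Low_3, High_1 or High_3 (adjusted p up to 0.117).

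In the basement membrane, the sheet that encloses the MuSC, 7 of 27 genes rose (4 without High_1 or High_3) and 3 fell. *Col4a1* was at 654, 463 and 677 CPM in MyoD-tdTomato low cells and at 326, 366 and 409 CPM in MyoD-tdTomato high cells, 1.63-fold higher (edgeR adjusted p = 0.0146), and *Col4a2* was 1.62-fold higher, not called without Low_1. The genes lie head to head on opposite strands and overlap at their starts, and whether counting used strand is not stated. *Lama4*, a laminin alpha chain of vessels and nerve, was at 2.60, 5.62 and 8.99 CPM against 0.422, 0.415 and 0.590 CPM, a log2 fold change of 3.58. *Fras1* and *Frem2*, which form one adhesion complex, fell 4.53-fold and 8.65-fold. *Fras1* was at 18.3, 9.96 and 14.2 CPM against 87.1, 43.7 and 61.3 CPM.

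Of 44 interstitial and matricellular proteins tested, 18 were higher and 1 lower, with a median of 0.74. *Fn1*, fibronectin, was at 482, 419.8 and 432 CPM in MyoD-tdTomato low cells and at 199.7, 225 and 186 CPM in MyoD-tdTomato high cells, 2.18-fold higher (log2 fold change 1.13 ± 0.09, edgeR adjusted p = 0.000764). *Ccn2*, a matricellular target of TGF-beta and YAP, was at 279, 367 and 284 CPM against 129, 176 and 111 CPM, 2.24-fold higher. *Has2*, which makes hyaluronan, was at 24.0, 23.0 and 21.7 CPM against 10.5, 8.75 and 8.22 CPM, 2.50-fold higher (edgeR adjusted p = 0.000997). *Vcan* (versican, a hyaluronan-binding proteoglycan) rose 1.67-fold and *Fbn1* (fibrillin 1, of elastic microfibrils) 1.89-fold. These 5 genes were called without each library in turn.

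Enzymes that mature or cut the matrix also rose. In collagen maturation 9 of 27 genes rose and none fell, among them *Loxl3*, a lysyl oxidase that crosslinks collagen, at 107, 88.4 and 70.3 CPM against 40.7, 42.5 and 28.2 CPM, and *P4ha3*, a collagen prolyl hydroxylase, 1.90-fold higher. *Bmp1*, which trims procollagen, rose 1.80-fold. Among proteases and inhibitors 9 of 29 rose and 1 fell. *Mmp14*, a membrane collagenase, was 1.67-fold higher, *Mmp2*, the gelatinase it activates, 1.90-fold higher, and *Timp1*, an inhibitor of matrix proteases, 1.64-fold higher.

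Of 11 genes of tube morphogenesis and matrix organisation that the study names from its RNA sequencing, 9 were higher and none lower, which is not independent evidence. The count was 5 without High_1 or High_3. *Angpt1* (angiopoietin 1, the ligand of Tie-2) was at 25.1, 16.4 and 19.7 CPM in MyoD-tdTomato low cells and at 9.91, 10.3 and 8.35 CPM in MyoD-tdTomato high cells, 2.14-fold higher (edgeR adjusted p = 0.00399). *Csf1*, the growth factor of macrophages, was at 868, 1059 and 892 CPM against 474, 718 and 548 CPM, 1.62-fold higher, and was not called without High_1 or High_3. The 2 that were not called were *Cxcl12*, a chemokine (log2 fold change 0.87, adjusted p = 0.095, or 1.26e-06 and called with the library number as a block, as it was without Low_1), and *Smad7*, an inhibitor of TGF-beta signalling (log2 fold change 0.58, adjusted p = 0.0119, called with the block and without Low_3 or High_2).

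Secreted signals moved in both directions. Of 54 growth factors, cytokines and antagonists 21 rose and 8 fell, with a median log2 fold change of 0.61, and the count higher was 13 without High_3. *Fstl1*, a secreted glycoprotein that modulates BMP signals, was at 134, 109 and 110.3 CPM in MyoD-tdTomato low cells and at 54.4, 58.7 and 54.1 CPM in MyoD-tdTomato high cells, 2.11-fold higher (edgeR adjusted p = 0.000924). *Sema7a*, a membrane semaphorin, was 2.22-fold higher and *Tgfb1* 1.55-fold higher, the second not called without Low_1 or High_1. *Fst* (follistatin, which traps myostatin and activin) was at 14.8, 8.87 and 14.0 CPM against 43.8, 28.4 and 49.0 CPM, 3.21-fold lower (edgeR adjusted p = 0.00566). *Wnt9a*, a WNT ligand, was at 24.1, 12.05 and 25.3 CPM against 135, 84.0 and 117 CPM, 5.47-fold lower. *Chrd* (chordin, a BMP antagonist) was 4.35-fold lower, but it overlaps *Thpo* on the other strand, and reads of the pair cannot be told apart where counting did not use strand, which is not stated.

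Of 28 target genes of TGF-beta, BMP and YAP signalling 9 rose and 4 fell, and the counts were 4 and 2 without High_1. *Axl*, a receptor kinase and YAP target, was at 475, 578 and 525 CPM in MyoD-tdTomato low cells and at 275, 383 and 305 CPM in MyoD-tdTomato high cells, 1.64-fold higher. *Tagln* (transgelin, an actin-binding protein of smooth muscle) was 1.69-fold higher. *Ankrd1*, a YAP target that is also a sarcomere protein, was at 288, 326 and 331 CPM against 677, 544 and 639 CPM, 1.97-fold lower, *Acta2* (smooth muscle actin, also made by myoblasts) was 3.31-fold lower, not called without Low_3, High_1 or High_3, and *Myl9*, a smooth muscle myosin light chain, 1.92-fold lower.

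Immediate early genes, which respond within minutes to growth factors and stress, were higher for 11 of 26 and lower for 1, with a median of 0.63, and for 5 without High_3. *Klf6* was at 71.7, 75.3 and 73.0 CPM in MyoD-tdTomato low cells and at 41.3, 48.6 and 43.0 CPM in MyoD-tdTomato high cells, 1.66-fold higher (edgeR adjusted p = 0.0015). *Dusp5*, a phosphatase of ERK, was at 34.7, 36.7 and 34.4 CPM against 11.2, 18.6 and 14.2 CPM, 2.41-fold higher. *Myc* was 1.75-fold higher, though not called without High_3. *Nr4a3*, an orphan nuclear receptor of the same early class, fell 3.70-fold.

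Imprinted growth genes, expressed from 1 parental copy, split as well, with 2 of 16 higher and 4 lower (2 without High_3). *Peg10*, derived from a retrotransposon, was at 81.3, 73.6 and 90.2 CPM in MyoD-tdTomato low cells and at 35.5, 36.4 and 44.9 CPM in MyoD-tdTomato high cells, 2.10-fold higher (edgeR adjusted p = 0.00139), and its neighbour *Sgce*, a sarcoglycan, 1.69-fold higher. *Zdbf2* was at 21.3, 15.5 and 22.6 CPM against 110.2, 57.0 and 75.1 CPM, 4.07-fold lower. *Igf2*, the fetal growth factor that myoblasts secrete as they differentiate, was at 2066, 949 and 1709.9 CPM against 3486, 2156 and 2974 CPM. The groups did not overlap but the adjusted p was 0.116, and with the library number as a block *Igf2* was called lower (log2 fold change -0.91, adjusted p = 7.96e-06). *Cdkn1c* (p57, an imprinted inhibitor of the cell cycle) fell 2.95-fold, not called without Low_3, High_1 or High_3.

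Glycolysis and the pentose phosphate pathway changed little as a list, with 2 of 29 higher, 3 lower and a median of 0.04. *Pkm*, the main pyruvate kinase of these cells, had a log2 fold change of 0.00 (edgeR adjusted p = 0.97). The 2 called higher were *G6pdx* and *Tkt* (transketolase), and at these shares they are not read as a result about a pathway. *G6pdx*, the entry enzyme of the pentose phosphate pathway, was at 214, 258 and 219.9 CPM in MyoD-tdTomato low cells. In MyoD-tdTomato high cells it was at 104, 166 and 127 CPM. *Tkt* was at 69.6, 101 and 66.9 CPM against 24.0, 47.6 and 27.0 CPM. Neither was called without High_3, *Tkt* also not without Low_1, Low_3 or High_1, and 1 gene of the list fell without Low_3 or High_3. The interferon response list had 2 of 21 higher and 1 lower, or 9.52% and 4.76%. These shares are close to the 5.87% and 8.61% of all genes tested. *Irf1*, an interferon regulatory factor, rose 1.88-fold (not called without High_3) and *Ddx58*, the RNA sensor RIG-I, 1.79-fold (of the omissions of 1 library, called only in that of Low_2), while *Igtp*, an interferon-induced GTPase, was at 0.826, 0.620 and 0.999 CPM in MyoD-tdTomato low cells and at 4.98, 2.90 and 3.79 CPM in MyoD-tdTomato high cells. The count higher was 0 without High_3, 1 without Low_1 or High_2 and 5 with the library number as a block.

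The 12 largest falls listed here were mostly not muscle structural genes. Sarcomere genes came just after this cut, with *Actc1* at a log2 fold change of -3.23 and *Myh1* at -3.22. Neither was called without Low_3, High_1 or High_3. Among called genes whose groups did not overlap and whose higher group averaged at least 10 CPM, the 12 largest falls lay between log2 fold changes of -3.64 and -3.26. *Sost* (sclerostin, a WNT inhibitor best known from bone) led them at 1.14, 0.542 and 1.26 CPM in MyoD-tdTomato low cells and 12.1, 12.9 and 11.8 CPM in MyoD-tdTomato high cells, 12.4-fold lower (log2 fold change -3.64 ± 0.27, edgeR adjusted p = 0.000764). *Kremen2*, a receptor that also acts in WNT inhibition, was at 1.61, 0.775 and 1.26 CPM against 17.2, 9.09 and 14.2 CPM, a log2 fold change of -3.47. *Sel1l3* fell 11.4-fold, at 6.25, 2.01 and 4.55 CPM against 59.0, 33.8 and 53.4 CPM. *Drd4* (a dopamine receptor) and *Cemip* (which degrades hyaluronan) fell 9.75-fold and 9.96-fold. *Myh3*, *Xirp2* (an actin-binding protein of the muscle-tendon junction), *Cilp2*, *Ermap*, *Fam78a* and *Cbfa2t3* (a transcriptional corepressor) also belonged to the set, of which *Myh3* and *Xirp2* were not called without Low_3, High_1 or High_3.

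The 12 largest rises lay between log2 fold changes of 1.99 and 3.06. *Col1a1*, *Col1a2*, *Col5a3*, *Col6a3* and *Postn* (periostin) are matrix genes, *Olfml2a* and *Adamtsl4* encode secreted proteins, and *Lyz2* (lysozyme) and *Apoe* (apolipoprotein E) are best known from macrophages. *Lyz2* was at 17.9, 29.6 and 28.6 CPM in MyoD-tdTomato low cells and at 1.94, 4.30 and 6.62 CPM in MyoD-tdTomato high cells, 5.90-fold higher (edgeR adjusted p = 0.00898). *Pdgfrb*, a growth factor receptor of pericytes and fibroblasts, was at 110.2, 37.9 and 58.0 CPM against 20.2, 9.77 and 10.9 CPM, 5.05-fold higher. It was not called without Low_3 or any one of High_1 to High_3, but was called with the library number as a block (edgeR adjusted p = 1.15e-08). *Cyp1a1* and *Cyp1b1*, cytochrome P450 enzymes, were the other 2. *Apoe* was not called without High_1 or High_3, *Col6a3* without High_1 and *Olfml2a* without Low_3, High_2 or High_3.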

How the data were processed

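Poly(A) RNA libraries (TRIzol, NEBNext Ultra II) were sequenced as paired reads of 36 bases. The authors mapped and counted them with CLC Genomics Workbench on GRCm39 and deposited raw counts per gene with TPM in one table for all libraries. The annotation and the strand setting are not given in the sources used here, so that overlapping genes and near-identical copies such as actins and myosin heavy chains may share reads. The authors' TPM values, normalized within each library, were used in alternatives only. A further 21 per-library columns were not used. The 24 columns of the authors' own comparisons (fold changes and p-values) were not used either.

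From the counts, genes with at least 1 count in each of the 6 libraries were tested with edgeR 4.0.16 (R 4.3.3, TMM scaling, robust quasi-likelihood fit, no covariate), with Benjamini-Hochberg adjustment over all genes tested, and called where the adjusted p was under 0.05 and the change exceeded 1.5-fold. The study's own filter for zero counts spanned all libraries, and the fold limit is one it uses. An exact permutation test of 3 against 3 libraries cannot go below p = 0.1 and was not used. Alternatives changed the scaling, filter, test (DESeq2 1.42.0), unit (limma 3.58.1 on log2 TPM), thresholds, libraries and block.

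Total counts lay between 24471782 and 26782872 per library. No libraries of a group were duplicates, with a mean chi-square per gene between 15.1 and 55.8. Library numbers come from the sample titles. Same-numbered libraries deviated together from their group means. Pearson's r across genes, which are not independent replicates, was 0.498, 0.488 and 0.218 for numbers 1, 2 and 3. Same-numbered libraries were treated as pairs in the block. The main fit and the fits without 1 library used no block, and each omission left 1 library without the other of its number.

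The comparison, the 27 functional and 10 marker lists and the genes named were chosen with earlier results of these data known. Genes named were *Myod1*, those the study names for its sequencing, the 12 largest rises and falls among called genes without overlap that averaged at least 10 CPM in their higher group, up to 6 called members per direction and 2 others per list by CPM, and the markers. Genes outside this rule are said to be added. Some genes that meet the rule are not reported here. Promoter windows come from a RefSeq table on GRCm38.p6, matched by symbol, and no coordinate was moved between builds.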

Additional observations from a re-analysis of the deposited data

How the results depend on the processing

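Of 150 genes named in the text and tested, 135 were called, and 95 of these were called without each library in turn. None of the 135 changed direction under the 11 alternatives or without any one library. This is no added evidence, since called genes nearly all had groups without overlap, which can hardly reverse when 1 library is left out. The changes of threshold also reuse the same fold change. The count of genes higher in MyoD-tdTomato low cells was 382 with all 9 libraries in the fit, 1210 with limma on log2(TPM + 0.1), 339 at an adjusted p under 0.01 with the fold limit and 1638 at 0.05 with no fold limit, against 793. The count lower was 687 and 1907 at these thresholds, against 1162. Leaving out 1 library gave 372 to 1012 genes higher and 783 to 1341 lower. Rises made up 51.2% of calls with log2(TPM + 1), 54.7% with log2(TPM + 0.1) and 31.7% with all 9 libraries, against 40.6%, and the median of all genes was 0.10 and 0.13 on the TPM scales, against 0.03. With no filter on low counts 11 thick filament genes were lower, against 22, and 15 of the 150 genes lost their call. With the replicate block, 1073 genes were higher and 1298 lower, 1944 of the 1955 called genes stayed called, 2 of the 150 genes lost and 5 gained a call, each given in the report, and no other of their calls changed. The signs of *Pkm* and *Tiparp*, neither called, turned. *Pkm* stood at -0.0057 on the log2 scale with RLE size factors and with DESeq2, at -0.024 with all 9 libraries, and between -0.022 and 0.031 without single libraries. *Tiparp* lay between -0.15 and 0.28 without single libraries. The cause of these shifts was not tested. Genes with 0 counts in any library were not tested, which limits statements on genes near 1 count.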

Other observations

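Genes under the aryl hydrocarbon receptor, a ligand-activated transcription factor that senses planar aromatic compounds and switches on enzymes that oxidise them, were read as a group after *Cyp1a1* and *Cyp1b1* had appeared among the largest rises. The group was therefore chosen with its values known, and it was not tested as a list. Of 7 genes, 6 were called higher in MyoD-tdTomato low cells and 0 lower, with a median log2 fold change of 1.75, beside 5.87% of all genes tested called higher. *Cyp1a1*, a cytochrome P450 that is induced by the receptor, was at 19.2, 10.2 and 16.8 CPM in MyoD-tdTomato low cells and at 4.39, 3.28 and 3.75 CPM in MyoD-tdTomato high cells, with log2 fold change 2.02 (edgeR adjusted p = 0.00182). *Cyp1b1*, a related enzyme, was at 47.3, 29.8 and 48.0 CPM in MyoD-tdTomato low cells and at 9.41, 10.1 and 11.0 CPM in MyoD-tdTomato high cells, with log2 fold change 2.04 (edgeR adjusted p = 0.000997). In neither gene did the groups overlap.

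The receptor gene *Ahr* itself was at 13.9, 15.0 and 18.1 CPM in MyoD-tdTomato low cells, against 5.23, 8.15 and 6.11 CPM in MyoD-tdTomato high cells, with log2 fold change 1.27 ± 0.19 (edgeR adjusted p = 0.00322). Its repressor *Ahrr* was at 4.21, 3.56 and 3.25 CPM against 0.844, 0.453 and 1.10 CPM. *Nqo1*, a quinone reductase that also answers to oxidative stress, was at 86.7, 74.1 and 80.4 CPM against 35.3, 49.2 and 37.2 CPM. These 5 genes were called without each library in turn. *Aldh3a1*, an aldehyde dehydrogenase, was at 53.2, 17.5 and 21.1 CPM against 11.6, 8.68 and 7.13 CPM, with an adjusted p of 0.0463, and was not called without Low_3 or any one of High_1 to High_3. *Tiparp*, a receptor target that limits its activity, was not called (log2 fold change 0.06, edgeR adjusted p = 0.841). *Cyp1b1* is also made by fibroblasts and endothelial cells, whose marker sums were higher in MyoD-tdTomato low libraries, and the part of those cells in these values was not tested.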
